A study of Mus musculus with 72 samples.

Results

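The genes described here are 49 mouse genes of the cell cycle and of DNA replication, followed through stroke and reperfusion in brains of mice kept on 4 feeding regimens. They were taken as the rows of the gene count table whose Ensembl identifiers carry the 49 symbols in the GRCm38 annotation. All 49 were found among 35275 genes. The rule for finding them uses no measured value, but the 49 symbols were chosen with earlier results of these data known. They were divided by textbook role into 18 S-phase genes, 28 mitotic (G2 and M) genes and 3 genes of neither class (Ccnd1, Ezh2 and Mybl2). The animals were C57BL/6 mice of 7 months. Bulk RNA came from frozen tissue of a mid-coronal slice on the occluded side of the cerebrum. The regimens were every-other-day fasting with a 24 h fast alternating with a 24 h feeding day (EOD), 12 h (IF12) or 16 h (IF16) of fasting each day, both kept up for 4 months before the occlusion, and free access to food (AL). The stages were sham (which the labels name without describing the surgery), ischemia alone (tissue taken after 1 h of middle cerebral artery occlusion, MCAO), and 3, 12, 24 and 72 h of reperfusion after the same occlusion. Each of the 24 combinations of stage and regimen has 3 libraries. The labels do not say that these came from separate animals, so the p-values measure the spread between these samples, part of which may be technical.

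A dividing cell first copies its genome and then separates the copies. Cdc6 and Cdt1 load the Mcm2 to Mcm7 helicase onto origins in G1, Cdc45 and the sliding clamp Pcna act at the replication fork, and Rrm2, Tyms and Tk1 supply deoxynucleotides. Cdk1 with cyclin B then drives mitosis, in which the spindle kinesins, the centromere proteins, the Aurora and Bub1 kinases and the anaphase-promoting complex act. E2F factors are known to drive many S-phase genes at the start of the cycle, while MuvB complexes with B-Myb (Mybl2) and FoxM1 act later on mitotic genes through the cell cycle homology region (CHR) together with CCAAT boxes bound by NF-Y. Most neurons of the adult brain do not divide, whereas microglia, astrocytes, oligodendrocyte precursors and vascular cells can divide after injury.

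Promoter windows differed between the classes in the letters they hold, and 6 are shown because their genes had the largest fold changes among called S-phase genes at 24 h (Uhrf1, Cdt1, Mcm3) or mitotic genes at 72 h against 24 h (Ccnb1, Ube2c, Top2a). A window runs from 250 bases before an annotated RefSeq start to 50 after it (300 bases, GRCm38.p6), and 41 of the 49 genes had at least 1. Capitals mark every match, on either strand, to the CHR (TTTGAA), the CCAAT box (CCAAT) or an E2F element (TTGGCGC or TTCCCGC). The first of the Uhrf1 windows is shown.
Uhrf1, chr17:56303087-56303386, plus strand: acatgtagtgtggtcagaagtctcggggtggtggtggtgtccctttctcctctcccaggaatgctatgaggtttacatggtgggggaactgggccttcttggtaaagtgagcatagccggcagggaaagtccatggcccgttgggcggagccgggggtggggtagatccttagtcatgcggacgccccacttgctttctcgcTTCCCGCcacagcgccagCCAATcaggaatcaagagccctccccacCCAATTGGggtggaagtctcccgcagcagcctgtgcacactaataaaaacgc
Cdt1, chr8:122567765-122568064, plus strand: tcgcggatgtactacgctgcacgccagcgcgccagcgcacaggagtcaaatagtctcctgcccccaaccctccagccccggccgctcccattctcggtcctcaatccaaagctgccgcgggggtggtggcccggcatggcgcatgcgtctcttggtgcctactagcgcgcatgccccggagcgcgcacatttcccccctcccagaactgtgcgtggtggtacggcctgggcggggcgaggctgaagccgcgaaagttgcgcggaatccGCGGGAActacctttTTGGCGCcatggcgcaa
Mcm3, chr1:20820263-20820562, minus strand: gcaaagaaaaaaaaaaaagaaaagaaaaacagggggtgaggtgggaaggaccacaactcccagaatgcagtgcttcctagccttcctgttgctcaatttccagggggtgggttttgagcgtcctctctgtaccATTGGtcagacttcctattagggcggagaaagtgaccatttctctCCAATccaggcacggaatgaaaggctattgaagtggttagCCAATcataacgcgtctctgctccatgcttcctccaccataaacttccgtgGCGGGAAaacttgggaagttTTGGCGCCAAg
Ccnb1, chr13:100786437-100786736, minus strand: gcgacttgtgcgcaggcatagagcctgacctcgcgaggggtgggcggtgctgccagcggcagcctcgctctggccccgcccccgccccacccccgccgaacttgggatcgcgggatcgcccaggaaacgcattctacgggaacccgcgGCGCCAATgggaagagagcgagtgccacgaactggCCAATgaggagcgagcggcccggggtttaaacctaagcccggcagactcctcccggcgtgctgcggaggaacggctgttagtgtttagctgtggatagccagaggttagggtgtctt
Ube2c, chr2:164769679-164769978, plus strand: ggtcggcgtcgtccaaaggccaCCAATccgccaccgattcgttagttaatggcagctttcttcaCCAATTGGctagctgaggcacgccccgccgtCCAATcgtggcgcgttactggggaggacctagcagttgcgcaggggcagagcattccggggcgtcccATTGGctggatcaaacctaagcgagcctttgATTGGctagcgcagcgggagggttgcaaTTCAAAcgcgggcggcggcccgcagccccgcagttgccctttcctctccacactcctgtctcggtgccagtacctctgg
Top2a, chr11:99024140-99024439, minus strand: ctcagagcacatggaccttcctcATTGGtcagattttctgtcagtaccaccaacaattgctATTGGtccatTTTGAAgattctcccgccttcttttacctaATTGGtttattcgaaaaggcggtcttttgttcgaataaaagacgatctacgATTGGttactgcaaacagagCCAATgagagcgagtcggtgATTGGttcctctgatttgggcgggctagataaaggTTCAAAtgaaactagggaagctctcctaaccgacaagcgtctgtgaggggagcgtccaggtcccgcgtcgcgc
Uhrf1 has its E2F match beginning at -48, counted with the annotated start as 0, and Mcm3 has E2F matches at 19, 39 and 42. Ube2c has a CHR match at -29 below 6 CCAAT matches, and Top2a has CHR matches at -179 and -23. Ccnb1 has an E2F match at -102 that overlaps a CCAAT match at -99, and no CHR match in this window.

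Of the mitotic genes with a window, 16 of 23 held a CHR match (69.6%), against 2 of 16 S-phase genes (12.5%, Mcm2 and Cdc45) and 20.2% of the 27025 genes with windows. All 16 of these mitotic genes also held a CCAAT match, a pair found in 8.97% of all genes. CCAAT alone was matched in 20 of 23 mitotic genes (87%), in 9 of 16 S-phase genes (56.2%) and in 41.1% of all genes. E2F letters showed the opposite order, with 3 of 23 mitotic genes (13%; Mki67, Cdk1 and Ccnb1), 8 of 16 S-phase genes (50%; Mcm3, Mcm5, Mcm6, Mcm7, Cdc6, Cdt1, Uhrf1 and Chek1) and 7.79% of all genes. These matches are descriptions of the letters in these windows and are no evidence of binding in this tissue.

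**Figure D1:**
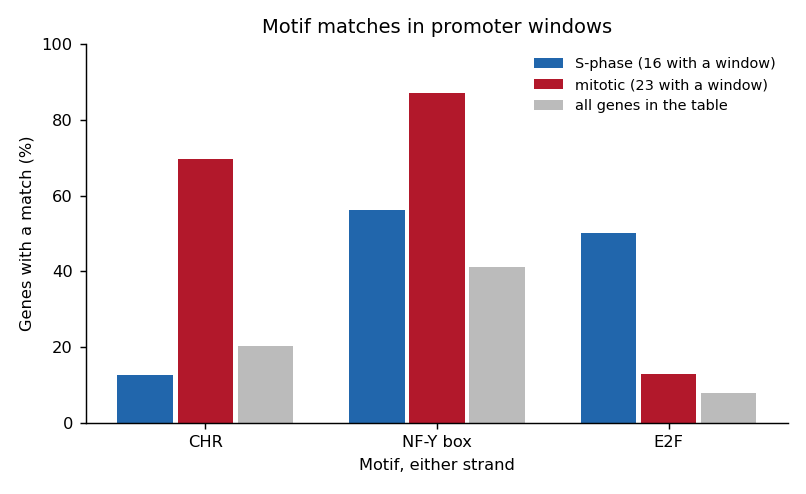
Share of genes (%) with at least 1 match to the CHR, the NF-Y box (CCAAT) or an E2F element in a promoter window, for S-phase genes, mitotic genes and all genes with windows. The CHR was matched in 69.6% of mitotic genes and 12.5% of S-phase genes, and E2F letters in 13% of mitotic genes and 50% of S-phase genes.

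Library totals ran between 16735707 and 24763161 counts, and levels are given as CPM, the counts scaled to a common library total after TMM scaling. A gene is called where the edgeR quasi-likelihood test gave a Benjamini-Hochberg adjusted p under 0.05 over all genes tested. Pooled comparisons weight the 4 regimens equally in 1 fit of 72 libraries, which tested 17268 genes, all 49 members among them. Neuronal marker genes summed to 2815 to 5851 CPM at 72 h and 4509 to 6197 CPM in sham. The 72 h libraries stood far apart within 3 of the 4 regimens. EOD replicate 2 at 72 h was the most distant, with choroid plexus markers at 10088 CPM against at most 2239 CPM in any other 72 h library, and it also held the highest summed S-phase and mitotic levels. The pooled results at 72 h are therefore also given without it. In bulk tissue, fewer cells of a type and less RNA per cell cannot be told apart, and the same holds for more cells and more RNA per cell.

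In sham brain the replication genes were more abundant than the mitotic genes. Counted per kilobase of gene length, the median sham level was 2.24 CPM per kb over the S-phase genes (0.138 to 40.6) and 0.338 CPM per kb over the mitotic genes (0.071 to 3.86). Lengths were those implied by the deposited FPKM values, from 865 bases for Ccne1 to 10075 bases for Mki67. The order of the genes depends on these lengths. Pcna led at 40.6 CPM per kb, followed by Ccnd1, cyclin D1 of the G1 phase, at 17.9, the cyclin E gene Ccne1 at 15.1, Mcm7 at 13.8 and E2f1 at 8.01. Mad2l1, a spindle checkpoint protein, was the highest mitotic gene at 3.86 CPM per kb. Lowest of the 49 were Mki67, the Ki-67 proliferation antigen, at 0.122 and the checkpoint kinase Bub1 at 0.071 CPM per kb. Low levels limit what can be seen early: the 12 sham libraries together held 22 counts of Bub1, 59 of Ccnb1, 60 of Aurkb and 64 of Cdk1.

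Ischemia alone moved none of the 49 genes past the test. No member was called in either direction, against 0.116% of all genes called higher, and none had an unadjusted p under 0.05 by edgeR; DESeq2 also called 0. The fold changes of members lay between -0.54 and 0.33 (log2, ischemia alone over sham). Class medians were -0.03 for S-phase and -0.04 for mitotic genes, beside 0.00 over all genes. Mki67 was at -0.17 ± 0.34, Top2a at 0.20 ± 0.36, Cdk1 at 0.14 ± 0.52, Mcm2 at -0.08 ± 0.17 and Ccnd1 at 0.11 ± 0.14 (log2, SE).

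At 3 h of reperfusion 3 members rose, where 10.7% of all genes were called higher. Cenpa, the histone H3 variant that marks centromeres, had its largest rise of the series here. Its levels at 3 h were 2.30, 6.29 and 6.97 CPM in EOD, 2.92, 8.46 and 9.49 CPM in IF12, 9.74, 3.10 and 3.30 CPM in IF16, and 2.66, 5.96 and 3.53 CPM in AL, against 0.837 to 2.38 CPM in the 12 sham libraries. All but 1 of the 12 libraries lay above the highest sham value, and the log2 fold change was 1.78 ± 0.30 (SE, adjusted p = 1.28e-05). The licensing factor Cdt1 rose by 0.73 ± 0.27 (adjusted p = 0.0423), a call lost when any 1 of 14 of the 24 libraries was left out. Pcna rose by 0.31 ± 0.09 (adjusted p = 0.0147). The S-phase and mitotic medians were -0.15 and -0.14 (log2), beside -0.01 over all genes. With only the 3 h and sham libraries in the fit, 10 members were called, a smaller share than of all genes (4925 of 16392). Mcm3, Tyms, Cenpe, Nusap1, Prc1 and Mybl2 were then lower and Kif23 higher. The count was 5 without EOD replicate 1 at 3 h. Among members not called at 3 h, Mki67 was at -0.30 ± 0.35, Top2a at -0.06 ± 0.36, Mcm2 at 0.17 ± 0.17, Mcm5 at -0.17 ± 0.18 and Mybl2 at -0.56 ± 0.34.

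At 12 h, 4 members rose and 1 fell, where 11.8% of all genes were called higher and 9.82% lower. Gtse1, a microtubule-binding protein of G2 that also regulates p53, rose by 1.17 ± 0.42 (log2, SE; adjusted p = 0.0372), and Cenpa by 1.05 ± 0.30 (adjusted p = 0.00922). The helicase subunits Mcm6 and Mcm4 rose by 0.54 ± 0.18 (adjusted p = 0.0267) and 0.33 ± 0.11 (adjusted p = 0.0268). E2f1 fell by 0.36 ± 0.12 on the log2 scale (adjusted p = 0.03), with 8.49, 16.3 and 23.7 CPM as lowest, median and highest value at 12 h and 16.7, 20.7 and 33.6 CPM in sham. Ccnd1 (0.36 ± 0.14, adjusted p = 0.0645), Mcm2 (0.31 ± 0.17), Pcna (0.19 ± 0.09), Mki67 (-0.36 ± 0.35) and Top2a (-0.23 ± 0.37) were not called. Leaving out single libraries changed these calls. Only 1 member was called without AL replicate 3 at 12 h, and 2 without IF16 replicate 2 at 12 h. The count was 3 without either EOD replicate 3 or IF12 replicate 1 at 12 h. It was also 3 without either AL replicate 3 or IF16 replicate 3 of sham. With only the 12 h and sham libraries in the fit 10 were called, a smaller share than of all genes (4209 of 16602).

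By 24 h the replication machinery had risen and the mitotic genes mostly had not. Of the 49 members 14 were called higher and 0 lower, where 25.4% of all genes were called higher. They comprised 11 of 18 S-phase genes, 2 of 28 mitotic genes and Ccnd1. The median log2 fold change was 0.62 over S-phase genes and 0.08 over mitotic genes, beside 0.00 over all genes. The share of mitotic genes called lay below the share of all genes called, and the share of S-phase genes lay above it.

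Uhrf1, which binds hemimethylated DNA behind the replication fork, had 6.03, 4.10 and 4.11 CPM in EOD, 12.0, 8.96 and 4.64 CPM in IF12, 2.28, 8.79 and 3.03 CPM in IF16, and 5.15, 2.39 and 4.34 CPM in AL at 24 h, against 0.63 to 1.94 CPM in sham. The 12 libraries at 24 h and the 12 sham libraries did not overlap, and the log2 fold change was 1.94 ± 0.33 (SE, adjusted p = 4.36e-06). For Mcm2 too there was no overlap, with 9.72, 13.8 and 22.4 CPM as lowest, median and highest value at 24 h and 5.07, 6.52 and 7.52 CPM in sham (1.17 ± 0.17, adjusted p = 2.7e-07).

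The replicative helicase and its loaders supplied 8 of the 14 called genes. Cdt1 had 2.55, 7.23 and 17.8 CPM (lowest, median, highest) at 24 h and 1.57, 2.46 and 3.59 CPM in sham (1.83 ± 0.27, adjusted p = 2.59e-07). Its partner Cdc6 rose by 1.03 ± 0.36 (adjusted p = 0.0157). Every subunit of the Mcm2 to Mcm7 ring was called: Mcm3 rose most, by 1.48 ± 0.23 (adjusted p = 1.18e-06), then Mcm6 by 1.24 ± 0.18 (adjusted p = 2.66e-07), and Mcm4 least, by 0.49 ± 0.11 (adjusted p = 0.000275). Mcm5, with 6.86, 12.7 and 22.8 CPM at 24 h and 6.56, 7.59 and 11.3 CPM in sham, overlapped between the groups and rose by 0.67 ± 0.18 (adjusted p = 0.00187). At the fork, Cdc45 rose by 0.65 ± 0.17 (adjusted p = 0.00196) and Pcna by 0.66 ± 0.09 (adjusted p = 1.88e-07).

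Genes of nucleotide supply did not pass the test at 24 h. The ribonucleotide reductase subunit Rrm2 was at 0.16 ± 0.26 (log2, SE; adjusted p = 0.634), thymidine kinase Tk1 at 0.48 ± 0.36 (adjusted p = 0.259) and thymidylate synthase Tyms at -0.05 ± 0.15 (adjusted p = 0.81). Nor did the S-phase regulators E2f1 (0.00 ± 0.12), Ccne1 (-0.10 ± 0.08), Ccne2 (0.13 ± 0.10) and the checkpoint kinase Chek1 (0.46 ± 0.23). Ccnd1 rose by 0.72 ± 0.14 (adjusted p = 4.48e-05), while the Polycomb methyltransferase Ezh2 was at 0.11 ± 0.16 and Mybl2 at -0.02 ± 0.33, neither called.

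The mitotic genes called at 24 h were Gtse1 and Cdk1. Gtse1 had 4.39, 12.0 and 2.44 CPM in EOD, 23.7, 14.1 and 19.3 CPM in IF12, 1.88, 2.92 and 0.532 CPM in IF16, and 12.5, 2.62 and 1.34 CPM in AL, against 0.286 to 0.991 CPM in sham. The IF12 libraries were the highest and 1 IF16 library lay within the sham range; the log2 fold change was 2.97 ± 0.42 (SE, adjusted p = 1.1e-07), the largest of the 49. Cdk1 rose by 1.15 ± 0.48 (adjusted p = 0.0436), a call lost when any 1 of 14 libraries was left out. Mki67 had 0.537, 1.09 and 2.12 CPM as lowest, median and highest value at 24 h and 0.743, 1.03 and 2.23 CPM in sham, so the ranges nearly coincided (-0.06 ± 0.34, adjusted p = 0.907). Top2a, the topoisomerase that untangles chromosomes, was at 0.35 ± 0.36 (adjusted p = 0.429). With only the 24 h and sham libraries in the fit, Aurkb, Foxm1 and Tpx2 were also called higher and Prc1 lower.

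**Figure D2:**
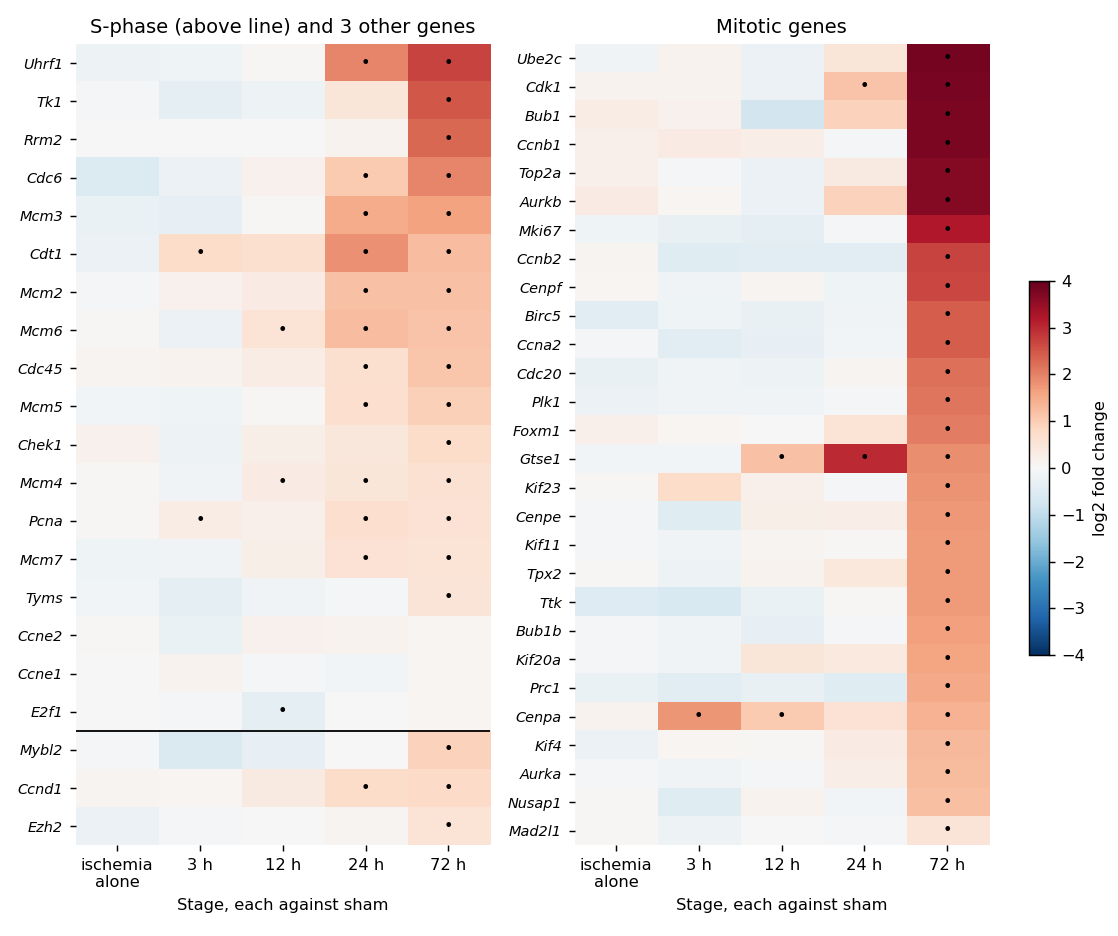
Log2 fold change of each of the 49 genes at each stage against sham, regimens pooled (colour; dots mark calls at adjusted p under 0.05). S-phase genes carry 11 dots at 24 h and 15 at 72 h, and mitotic genes 2 at 24 h and 28 at 72 h.

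At 72 h nearly the whole set was raised, and the mitotic genes most. Of 49 members 46 were called higher and 0 lower, where 16.1% of all genes were called higher, and all 49 fold changes were above 0. All 28 mitotic genes, 15 of 18 S-phase genes and the 3 genes of neither class were called. The median log2 fold change was 1.95 over mitotic genes and 1.03 over S-phase genes, beside 0.00 over all genes. Without EOD replicate 2 at 72 h these medians were 1.46 and 0.75 and the count was 42, with Tyms, Chek1, Ezh2 and Mybl2 no longer called. The fit of the 72 h and sham libraries alone also called 42, losing those same 4 genes.

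Spread between libraries was wide at 72 h. Mki67 had 2.65, 41.8 and 1.19 CPM in EOD, 11.4, 35.9 and 17.8 CPM in IF12, 2.66, 1.92 and 2.04 CPM in IF16, and 7.61, 11.6 and 45.9 CPM in AL, against 0.743, 1.03 and 2.23 CPM (lowest, median, highest) in sham. Of the 12 libraries 9 lay above the highest sham value, and the 3 below it were EOD replicate 3 and IF16 replicates 2 and 3. The log2 fold change was 3.21 ± 0.33 (SE, adjusted p = 2.23e-10), and 2.46 without EOD replicate 2. Top2a had 3.19, 39.2 and 1.48 CPM in EOD, 12.1, 37.1 and 20.3 CPM in IF12, 3.35, 2.89 and 2.46 CPM in IF16, and 6.76, 14.5 and 42.3 CPM in AL, against 0.472 to 1.44 CPM in sham. It was above sham in all 12 libraries, IF16 included, and rose by 3.68 ± 0.35 (adjusted p = 2.39e-11; 3.02 without EOD replicate 2).

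The 6 mitotic genes with the largest changes were Ube2c, Cdk1, Bub1, Ccnb1, Top2a and Aurkb. Cdk1 had 0.649, 18.5 and 0.143 CPM in EOD, 3.96, 13.9 and 5.96 CPM in IF12, 0.413, 0.641 and 0.237 CPM in IF16, and 2.05, 4.51 and 13.2 CPM in AL, against 0.0436 to 0.515 CPM in sham (3.81 ± 0.46, adjusted p = 6.7e-09; 2.81 without EOD replicate 2). Its partner cyclin Ccnb1 rose by 3.77 ± 0.41 (adjusted p = 9.12e-10; 2.99 without that library), and Ube2c, the ubiquitin-conjugating enzyme of the anaphase-promoting complex, by 3.81 ± 0.39 (adjusted p = 1.64e-10; 2.96 without it). The checkpoint kinase Bub1 rose by 3.77 ± 0.60 (adjusted p = 2.43e-06) from very few sham counts, and Aurkb, the kinase of the chromosomal passenger complex, by 3.66 ± 0.42 (adjusted p = 2.35e-09); without that library they rose by 2.73 and 2.74. At the other end stood Mad2l1 at 0.50 ± 0.10 (adjusted p = 0.000132), the spindle protein Nusap1 at 1.19 ± 0.20 and the centrosomal kinase Aurka at 1.26 ± 0.19. These are the 3 mitotic genes with the smallest changes; Mad2l1 is also the one most abundant in sham per unit of length.

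Among S-phase genes Uhrf1 again led. It had 2.50, 39.9 and 1.57 CPM in EOD, 7.71, 31.8 and 14.7 CPM in IF12, 1.24, 1.98 and 1.37 CPM in IF16, and 3.66, 12.7 and 32.7 CPM in AL at 72 h (2.71 ± 0.34, adjusted p = 1.53e-08). Tk1 rose by 2.50 ± 0.35 (adjusted p = 2.06e-07), Rrm2 by 2.31 ± 0.25 (adjusted p = 8.32e-10) and Cdc6 by 1.96 ± 0.36 (adjusted p = 2.97e-05). The ring subunits Mcm3, Mcm2 and Mcm5 rose by 1.60 ± 0.24, 1.17 ± 0.17 and 0.95 ± 0.18, Cdt1 by 1.25 ± 0.27 and Pcna by 0.59 ± 0.09, all called. Without EOD replicate 2 the log2 fold changes were 1.998 for Uhrf1, 1.62 for Tk1, 1.80 for Rrm2, 1.36 for Cdc6, 1.13 for Mcm3, 0.87 for Mcm2, 0.64 for Mcm5, 0.89 for Cdt1 and 0.46 for Pcna, each still called. E2f1 (0.06 ± 0.12, adjusted p = 0.737), Ccne1 (0.09 ± 0.08, adjusted p = 0.454) and Ccne2 (0.09 ± 0.10, adjusted p = 0.559) were the 3 members not called. Outside both classes Ccnd1 rose by 0.77 ± 0.14 (adjusted p = 4.41e-05), Ezh2 by 0.55 ± 0.16 (adjusted p = 0.00618) and Mybl2 by 0.93 ± 0.32 (adjusted p = 0.0244), and the Mybl2 call was also lost without AL replicate 3, IF12 replicate 2 or IF16 replicate 1 at 72 h.

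**Figure D3:**
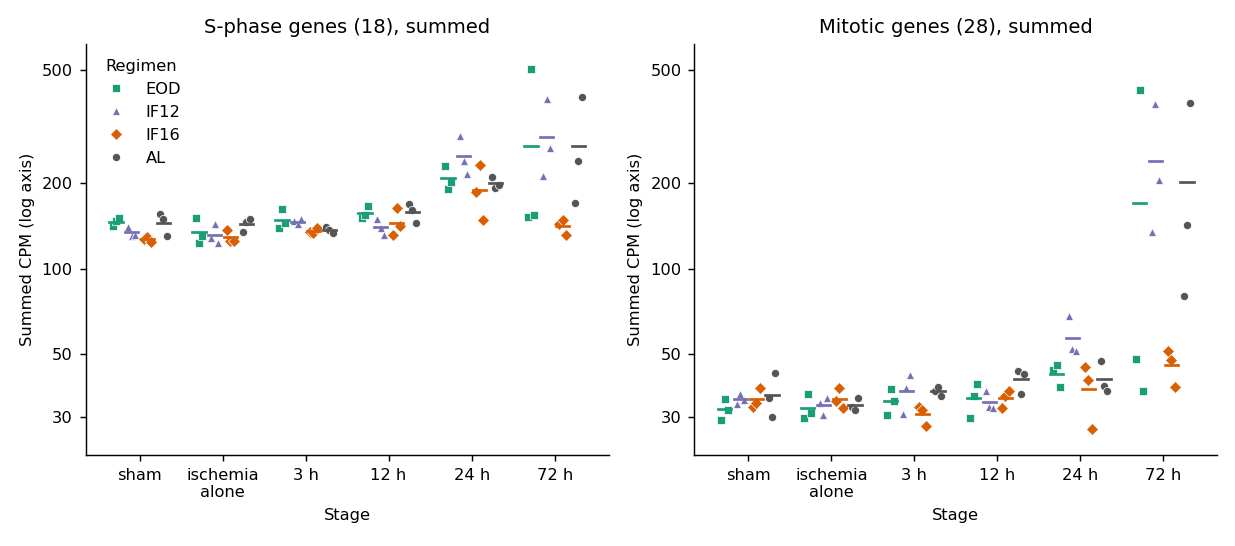
Summed CPM (log axis) of the 18 S-phase genes and of the 28 mitotic genes in each library by stage; points are libraries, bars are means of 3, colours and shapes are regimens. At 24 h the S-phase sums (149 to 295) lie mostly above sham (124 to 156), and at 72 h the mitotic sums reach 427 against 29.3 to 43.0 in sham.

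Summed over its 18 genes, the S-phase class had 149, 206 and 295 CPM (lowest, median, highest) at 24 h and 131, 191 and 508 CPM at 72 h, against 124 to 156 CPM in sham. The mitotic class had 27.3, 44.5 and 67.9 CPM at 24 h and 37.1, 108 and 427 CPM at 72 h, against 29.3 to 43.0 CPM in sham. The ratio of mitotic to S-phase sum was 0.175 to 0.242 at 24 h (median 0.209) and 0.240 to 0.961 at 72 h (median 0.531), against 0.200 to 0.330 in sham (median 0.246). Every 24 h library lay below the sham median of this ratio, and all but 1 of the 72 h libraries lay above it. In the 72 h libraries it ran between 0.240 and 0.841 in EOD, 0.638 and 0.961 in IF12, 0.292 and 0.357 in IF16 and 0.471 and 0.955 in AL.

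The direct comparison of 72 h with 24 h separated the classes. Here 27 of 28 mitotic genes were higher and 1 lower, and 5 of 18 S-phase genes were higher and 0 lower, where 12.9% of all genes were called higher and 11.6% lower. The median log2 fold change was 1.94 over mitotic and 0.16 over S-phase genes, beside 0.02 over all genes. Ccnb1 showed the largest difference, 3.85 ± 0.42 (SE, adjusted p = 1.78e-09), followed by Ube2c (3.34 ± 0.38, adjusted p = 4.34e-09), Top2a (3.33 ± 0.34, adjusted p = 4.45e-10), Mki67 (3.26 ± 0.33, adjusted p = 4.45e-10), Ccnb2 (3.11 ± 0.39, adjusted p = 4.66e-08) and Bub1 (2.86 ± 0.55, adjusted p = 0.000121). Cdk1, already called at 24 h, was higher by a further 2.66 ± 0.42 (adjusted p = 4.93e-06). Gtse1 went the other way and was lower at 72 h than at 24 h (-1.11 ± 0.38, adjusted p = 0.0269), a call lost without any 1 of 6 libraries and in the fit of these 2 stages alone. Without EOD replicate 2 at 72 h 33 members were called instead of 35, Ccnb1 was at 3.08, Top2a at 2.67, Mki67 at 2.53, Ube2c at 2.49, Ccnb2 at 2.31 and Bub1 at 1.82.

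The 5 S-phase genes higher at 72 h than at 24 h included all 3 of nucleotide supply. Rrm2 had 1.81, 6.51 and 25.3 CPM (lowest, median, highest) at 72 h and 1.12, 1.62 and 2.97 CPM at 24 h (2.15 ± 0.25, adjusted p = 9.24e-09). Tk1 was higher by 2.01 ± 0.34 (adjusted p = 1.86e-05) and Tyms by 0.56 ± 0.15 (adjusted p = 0.00415), and the others were Cdc6 (0.93 ± 0.33, adjusted p = 0.0355) and Cdc45 (0.46 ± 0.17, adjusted p = 0.0401). The calls of Cdc6, Cdc45 and Tyms were lost in the fit of the 2 stages alone. For 9 S-phase genes called at 24 h the later comparison gave no call, among them Mcm2 (-0.00 ± 0.16, adjusted p = 0.987), Pcna (-0.07 ± 0.09), Mcm5 (0.28 ± 0.18) and Cdt1 (-0.58 ± 0.26, adjusted p = 0.0894). Ccnd1 was at 0.05 ± 0.14, while Ezh2 (0.44 ± 0.16, adjusted p = 0.0321) and Mybl2 (0.96 ± 0.32, adjusted p = 0.0238) were called higher, each losing its call when 1 of several libraries was left out.

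**Figure D4:**
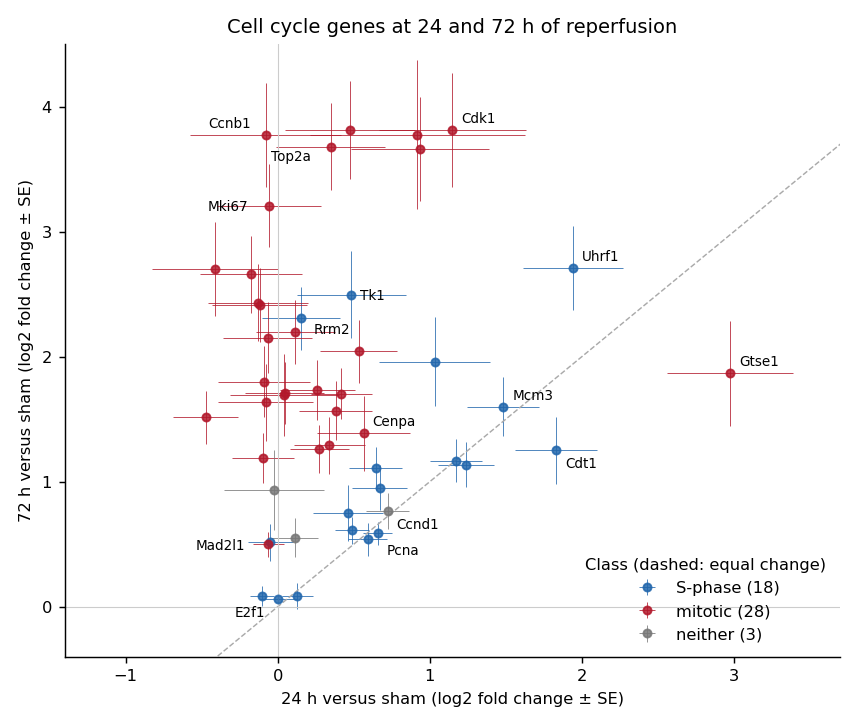
Log2 fold change against sham (± SE) at 24 h (x axis) and at 72 h (y axis) for the 49 genes, coloured by class; both comparisons share the sham libraries, and the dashed line marks equal change. Mitotic genes such as Mki67 (-0.06 at 24 h, 3.21 at 72 h) stand far above the line, while Gtse1 and Cdt1 lie below it.

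Marker sums of several other cell types moved with these genes across the 72 h libraries. At 72 h, activated myeloid markers (Spp1, Lgals3, Cd68 and 8 others) summed to 124, 1554 and 109 CPM in EOD, 229, 1378 and 500 CPM in IF12, 111, 125 and 105 CPM in IF16, and 186, 419 and 1413 CPM in AL, against 93.1 to 120 CPM in sham. The mitotic sums of the same libraries were 48.1, 427 and 37.1 CPM in EOD, 135, 382 and 205 CPM in IF12, 51.2, 47.8 and 38.3 CPM in IF16, and 80.3, 142 and 385 CPM in AL. The 3 libraries highest in one sum (EOD replicate 2, IF12 replicate 2 and AL replicate 3) were also the 3 highest in the other. All 11 activated myeloid markers were called higher at 72 h (16.1% of all genes) and 10 of 11 at 24 h (25.4% of all genes). At 24 h their sums were 149 to 721 CPM.

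The same 3 libraries were also highest in markers of reactive astrocytes, monocytes and border macrophages, neutrophils, B cells, endothelial cells, mural cells, meningeal fibroblasts, neuroblasts and ependymal cells, though not in every list. Reactive astrocyte markers summed to 1273, 7216 and 423 CPM in EOD, 2780, 8226 and 3874 CPM in IF12, 702, 724 and 505 CPM in IF16, and 3104, 3085 and 4998 CPM in AL at 72 h, against 163 to 403 CPM in sham, and they already stood at 1228 to 3321 CPM at 24 h. Homeostatic microglial markers lay between 384 and 1419 CPM at 72 h and between 223 and 598 CPM at 24 h, against 341 to 435 CPM in sham. Oligodendrocyte precursor markers had 339 to 739 CPM at 72 h and 360 to 472 CPM in sham, and meningeal fibroblast markers 55.7 to 1071 CPM at 72 h and 31.9 to 64.6 CPM in sham. Monocyte and border macrophage markers had 6.38 to 85.1 CPM at 72 h and 4.06 to 11.03 CPM in sham, and endothelial markers 224 to 771 CPM at 72 h and 240 to 361 CPM in sham. Neutrophil markers had 4.76 to 29.0 CPM at 72 h, against 4.57 to 6.36 CPM in sham. The neutrophil marker Ly6g was at 0 in every library of ischemia alone. At the other stages no list had a marker at 0 throughout. Striatal projection neuron markers summed to 1691, 376 and 984 CPM in EOD and 486, 171 and 504 CPM in IF12 at 72 h. They had 1686, 291 and 2057 CPM in IF16 and 374, 536 and 551 CPM in AL, against 737 to 3289 CPM in sham. The part of these cell types, or of the tissue sampled, in the changes of the cell cycle genes was not tested.

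Within the regimens, the 72 h response was seen in IF12 and AL and was small in IF16. In IF12 43 of 49 tested members rose against IF12 sham (14 S-phase, 28 mitotic and 1 other; 13.7% of all genes called higher), with medians of 2.78 over mitotic and 1.30 over S-phase genes. In AL 35 of 48 rose (10 S-phase, 24 mitotic and Ccnd1; 4.45% of all genes), with medians of 2.37 and 1.17; the count was 16 without AL replicate 3 at 72 h, and 22 or 23 without replicate 1 or 2 of AL sham. In EOD edgeR called 0 (0.0% of all genes, lowest adjusted p = 0.255), although 39 had an unadjusted p under 0.05 (1880 of 16415 genes). The EOD medians, 2.51 and 1.28, were not below those in AL but leaned on replicate 2. Mitotic sums at 72 h were 48.1, 427 and 37.1 CPM in EOD replicates 1, 2 and 3, and 51.2, 47.8 and 38.3 CPM in IF16. DESeq2 called 12 in EOD (241 of 17256 genes). With edgeR 0 were called without EOD replicate 2, 26 without EOD replicate 3 and 32 in the fit of all 72 libraries (854 of 17268 genes). In IF16 edgeR called 0 (0.183% of all genes), and 7 had an unadjusted p under 0.05, a share near that of all genes (2211 of 16355). DESeq2 called 1, and the medians were 0.29 and 0.12. Top2a came closest at 1.69 ± 0.42 (log2, SE, edgeR adjusted p = 0.0848). These counts and medians come from separate fits and do not by themselves show that regimens differ. Of the 49 members 46 were tested in EOD and 45 in IF16. Mitotic genes tested were 28 in IF12, 27 in AL, 25 in EOD and 24 in IF16, so the mitotic medians cover unlike sets.

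**Figure D5:**
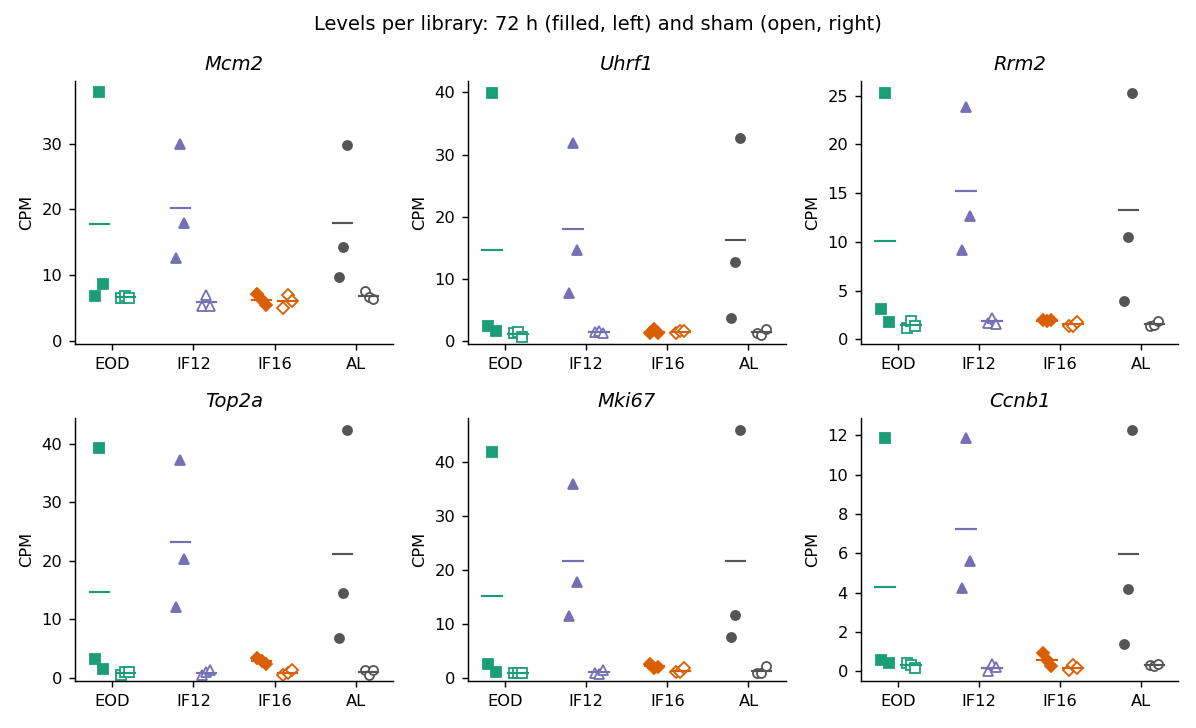
CPM of 6 genes in each library, by regimen, at 72 h (filled, left of each pair) and in sham (open, right); bars are means of 3. EOD replicate 2 and all IF12 and AL libraries stand above every sham library for the 6 genes, while IF16 libraries stay near sham (1.92 to 2.66 CPM of Mki67), above it throughout only for Top2a.

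Library by library, the members above the highest of the 12 sham values numbered 4, 15 and 3 of 18 S-phase genes and 12, 28 and 4 of 28 mitotic genes in the EOD libraries at 72 h. The IF12 libraries had 15, 15 and 14 S-phase genes and all 28 mitotic genes above it. For IF16 these counts were 0, 4 and 0 S-phase genes and 12, 12 and 4 mitotic genes, and for AL 9, 14 and 15 S-phase genes and 24, 28 and 28 mitotic genes. Within the EOD group, replicate 2 thus exceeded every sham library for more members than replicates 1 and 3 did. The share of all genes above their own highest sham value is not given here. These counts therefore do not show whether the members stood out from other genes of the same library.

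The difference between IF16 and AL at 72 h was tested directly. In the 12 libraries of 72 h, edgeR called 0 members (0.0% of all genes, lowest adjusted p = 0.768). Unadjusted p was under 0.05 for 22 members, all of them lower in IF16, and for 855 of 16177 genes. The medians were -2.03 over mitotic and -1.14 over S-phase genes (log2, IF16 over AL). Mki67 was at -3.25 ± 1.18, Rrm2 at -2.73 ± 0.95 and Uhrf1 at -3.38 ± 1.21. DESeq2 called 0 with 34 under 0.05 unadjusted, whereas the fit of all 72 libraries called 31 (571 of 17268 genes). As a difference of responses (72 h against sham, IF16 minus AL), edgeR called 0 (0.0% of all genes). Of the members 30 had an unadjusted p under 0.05 (1816 of 17268 genes). Rrm2 was at -2.71 ± 0.71 (adjusted p = 0.157) and Mki67 at -3.30 ± 0.91 (adjusted p = 0.171). DESeq2 also called 0, and 3 were called without AL replicate 1 at 72 h. Differences of this size passed the test only in the 72 h comparison fitted over all 72 libraries or with 1 library left out.

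For the other regimens no member was called. EOD against AL and IF12 against AL at 72 h gave 0 calls each (0.0% of all genes), with 0 members under 0.05 unadjusted. The difference of responses gave 0 calls for EOD minus AL (0.0% of all genes), with no member under 0.05 unadjusted. For IF12 minus AL it also gave 0 calls (0.0% of all genes), with 1 member under 0.05 unadjusted by edgeR (1202 of 17268 genes). Without EOD replicate 2 at 72 h, 3 were called for EOD minus AL. In sham brains edgeR gave 0 calls among the 44 members tested for the 3 fasting regimens against AL (0.0% of all genes in each comparison). Unadjusted p was under 0.05 for 3 members in EOD (965 of 15981 genes), 1 in IF12 (1818 genes) and 2 in IF16 (5100 genes). Leaving out AL replicate 3 of sham gave 2 member calls for IF16. The share of all genes called for IF16 depended on the method. DESeq2 called 2485 of 13655 genes, a replicate block in edgeR 1207 of 15981 and no low-count filter 268 of 24655, with 0 members among them.

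The 24 h rise was examined within regimens after the pooled result was seen. IF12 had 12 of 49 tested members higher, a share near that of all genes (20.2%). They were 9 of 18 S-phase genes, 2 of 28 mitotic genes and 1 of neither class. The largest changes were those of Gtse1 (4.60 ± 0.57, adjusted p = 9.97e-05), Uhrf1 (2.57 ± 0.46), Mcm3 (1.97 ± 0.34) and Cdt1 (1.84 ± 0.31). IF16 had 7 of 45 tested members higher, all of them S-phase genes (8.54% of all genes). Cdt1 (2.25 ± 0.46, adjusted p = 0.00599) and Uhrf1 (1.67 ± 0.42) led. In IF16 2 were called without replicate 3 of sham, and 3 without replicate 2 of sham or replicate 2 at 24 h. AL had 1 of 48 tested members higher, Cdt1 (1.98 ± 0.58, adjusted p = 0.0487), a smaller share than of all genes (4.06%). EOD had 0 of 46 higher (2.22% of all genes) and 1 lower, E2f1 (-0.87 ± 0.23, adjusted p = 0.0421), where 3.5% of all genes were lower. The AL call was lost without any 1 of the 3 AL sham libraries or AL replicate 2 at 24 h, and the EOD call without any 1 of its 6 libraries. The median log2 fold change over the mitotic genes tested at 24 h was 0.46 in IF12, 0.27 in EOD, 0.01 in IF16 and 0.00 in AL. Over S-phase genes it was 0.84, 0.70, 0.44 and 0.46 in the same order. Differences between regimens at 24 h were not tested.

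Related genes of the pathway come from lists chosen by role, with earlier results of these data known. They are set beside the shares of all genes called higher, 25.4% at 24 h and 16.1% at 72 h. At 24 h 8594 of 17268 genes were called, 4393 of them higher, so a similar number were lower. The falls given below for these lists were smaller shares than that. Among 42 other replication genes 20 rose and 4 fell at 24 h and 27 rose at 72 h, with medians of 0.25 and 0.38 (log2). Chaf1b, a histone chaperone subunit of the fork, rose by 2.07 at 24 h and 2.58 at 72 h. Among 45 other mitotic genes 8 rose, a smaller share than of all genes, and 1 fell at 24 h and 42 rose at 72 h, with medians of 0.13 and 1.72, and the kinase Pbk rose by 3.85 ± 0.34 at 72 h.

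Among inhibitors of the cycle's kinases the levels took different courses. Cdkn1a, which encodes the inhibitor p21, averaged 16.6 CPM in sham, 24.6 CPM after ischemia alone, 129 CPM at 3 h, 113 CPM at 12 h, 171 CPM at 24 h and 30.6 CPM at 72 h. It rose by 3.38 ± 0.33 (log2, SE; adjusted p = 4.5e-11) at 24 h and was lower at 72 h than at 24 h (-2.53). Cdkn2c averaged 3.61 CPM in sham, 4.01 CPM at 24 h and 12.3 CPM at 72 h. Of the 7 inhibitor genes 3 rose at 24 h (25.4% of all genes) and 5 at 72 h (16.1% of all genes), where Cdkn2c (1.64 ± 0.19) and Cdkn2a (1.61 ± 0.34) had the largest changes. Of 5 G1 cyclins and kinases 4 rose at 24 h, Cdk6 by 1.58 and Cdk4 by 0.30, and 4 at 72 h. Among 17 genes of the E2F, pocket protein and MuvB families 4 rose, a share near that of all genes, and 2 fell at 24 h and 5 rose at 72 h, with E2f8 at 2.08 and E2f2 at 1.44.

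Some members share exonic sequence with a neighbouring gene in the GRCm38 annotation, and whether the counting used strand is not given in the sources used here. This touches 16 of the 49, among them Top2a, Ube2c, Tk1, Mcm7, Ccnd1, Ccna2 and Plk1, whose values could hold reads of the overlapping gene. Mki67, Cdk1, Ccnb1, Uhrf1, Mcm2, Mcm3, Rrm2 and Cdt1 are not among them.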

How the data were processed

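Gene counts and FPKM values of 72 libraries were deposited by the authors, as 1 count table and 1 FPKM table. The submitters' processing notes name CASAVA, TopHat2 and DESeq2 and the builds GRCm38 and mm10; the sources used here do not give the counting tool, its strand setting or the annotation. The deposited counts were tested. The deposited FPKM served as a check and gave the gene lengths behind the levels per kilobase. The gene length implied by counts, totals and FPKM was the same in every library to within 1.8e-07 of itself. The 49 members and all gene lists were chosen with earlier results of these data known. Groups came from the sample titles.

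Symbols were attached to 34490 of 35275 Ensembl identifiers, and 6816 genes had no read. Counts were fitted with edgeR 4.0.16 (TMM scaling, filterByExpr, quasi-likelihood F test) in R 4.3.3, with Benjamini-Hochberg adjustment over all genes tested and a threshold of 0.05. Pooled stage contrasts and differences of responses used all 72 libraries in 24 groups, contrasts within a regimen its 18 libraries, and contrasts within a stage its 12. Fold changes are log2, with the stroke stage or fasting regimen over sham or AL, or 72 h over 24 h. Alternatives were DESeq2 1.42.0, RLE size factors, no filter on low counts (genes with at least 1 read), a replicate block, other sets of libraries in the fit, and leaving out each library. In a test on simulated data, the pooled design of 12 against 12 libraries recovered 100% of genes changed by 1 on the log2 scale. In the same test 3 against 3 within 18 libraries recovered 40% at that size and 100% at 2. The simulation gave every gene the same dispersion and changed only genes above a count floor. It therefore does not give the recovery for members with few counts or for groups spread as widely as at 72 h. Named genes in pooled stage contrasts were drawn from 9 fixed members, not all of which are given at every stage. The uncalled members given therefore differ between stages. Also named were the called members with the largest and smallest changes at 72 h. In other pooled contrasts up to 6 called members in each direction were named, and up to 4 in each regimen contrast. Other members named beside their role were chosen after their values were seen. Promoter windows were scanned with Python 3.11.15. No 2 libraries of a group agreed within sampling noise.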

Additional observations from a re-analysis of the deposited data

Results flagged for a closer look

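Ccne2, a cyclin E gene, was flagged because its 72 h response went in opposite directions in IF12 and AL. It had 2.65, 3.49 and 2.90 CPM in IF12 at 72 h, against 3.54, 4.60 and 4.23 CPM in IF12 sham, and 3.96, 3.79 and 4.47 CPM in AL at 72 h, against 3.35, 3.64 and 3.60 CPM in AL sham. The difference of the responses was -0.63 ± 0.30 (log2, SE, IF12 minus AL), with an unadjusted p of 0.036 and an adjusted p of 0.661 by edgeR's quasi-likelihood test, so it fails the correction over all genes.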

How the results depend on the processing

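Of the members called, the pooled counts at 24 h, at 72 h and at 72 h against 24 h stayed within 1.5 times the reported counts under every alternative run. With single libraries left out they were 13 to 16, 42 to 46 and 30 to 36. With only the groups compared in the fit they were 18 (8680 of 16658 genes), 42 (4472 of 16620 genes) and 28 (2814 of 16653 genes). At 3 h the fit of those 2 stages alone called 10 (4925 of 16392 genes), and leaving out libraries gave 2 to 5. At 12 h the values were 10 (4209 of 16602 genes) and 1 to 6. Within AL at 24 h the count of 1 became 0 with RLE size factors, 3 without the filter, 5 with DESeq2, 2 in the fit of all 72 libraries and 0 to 1 with libraries left out. Within EOD at 24 h the count of 1 became 3 without the filter, 3 with DESeq2, 9 in the fit of all 72 and 0 with any library left out. At 72 h within EOD, DESeq2 called 12, the fit of all 72 called 32, and leaving out libraries gave 0 to 26; within AL leaving out libraries gave 16 to 38, and within IF16 DESeq2 called 1. Within IF16 at 24 h the fit of all 72 called 4 and left-out libraries gave 2 to 10. IF16 against AL at 72 h gave 31 in the fit of all 72, IF16 against AL in sham 0 to 2 with libraries left out, and the differences of responses 0 to 3 for EOD and 0 to 3 for IF16. The cause of these shifts was not tested. Mki67 and Mybl2 at 24 h, not called, changed sign with single libraries left out (-0.15 to 0.053 and -0.16 to 0.047).

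Replicate numbers are shared between groups. The median correlation between deviations of same-numbered libraries lay between -0.0637 and 0.0549 over the pooled contrasts. Single pairs ran from -0.613 to 0.661, so these medians cannot show whether some groups shared more than a number. With the number as a replicate block the pooled counts were 46 at 72 h and 14 at 24 h, and the single calls within AL and EOD at 24 h became 0. Low counts limit mitotic genes before 72 h. Comparisons within regimens at 24 h were added after the data were seen.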

Other observations

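Within the list of other replication genes the 24 h changes were not all upward, though genes called lower were a smaller share of the list than of all genes. The nuclease gene Exo1 rose by 1.22 and the helicase cofactors Gins1 and Gins2 by 1.14 and 1.10 (log2, 24 h against sham, regimens pooled), while Clspn, which encodes the checkpoint mediator claspin, fell by 1.56 and the origin-firing kinase gene Cdc7 by 0.73. At 72 h none of the 42 genes was called lower, and Gins2, Exo1 and Mcm10 were higher by 1.75, 1.48 and 1.43. Among the other mitotic genes at 72 h, Depdc1a was higher by 3.99 ± 0.73, Cdca5 by 3.53 ± 0.48 and the kinesin Kif18b by 3.43 ± 0.40 (SE; all called by edgeR's quasi-likelihood test).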
